A study of Homo sapiens with 16 samples.

Results

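Basement membrane genes were followed through actin depolymerization in pancreatic progenitors. The 35 genes were a fixed list of laminin, collagen IV, nidogen, perlecan and other basement membrane genes, read out of the 35810 genes in the deposited tables. Of these 35, 34 had enough reads to be tested among 16705 genes. The exception was LAMC3, at 0.0757 to 0.507 CPM (a library-size scaled count) in the 16 libraries.

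A basement membrane is the thin sheet of matrix on which an epithelium rests. Laminins, each a trimer of an alpha, a beta and a gamma chain, assemble into a network on the cell surface, and collagen IV, a trimer of alpha chains, forms the covalently linked network that gives the sheet its strength. Nidogens and the heparan sulphate proteoglycans perlecan and agrin bridge the networks, and cells bind the sheet through integrins and dystroglycan, which connect to actin inside the cell. In the developing pancreas the sheet surrounds the epithelial tree in which progenitors become endocrine cells.

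The cells were SA121 human embryonic stem cells, an established line carrying a GFP reporter in NGN3 (NEUROG3), the transcription factor that starts endocrine differentiation. They had been differentiated to day 19, and latrunculin B, a compound that binds free actin and so depolymerizes filaments, was given at 0.5 µM. The control at 0 h (n = 3) was harvested before treatment by the series text, although a label tags it with the vehicle DMSO, and the control at 24 h (n = 2) received DMSO. Latrunculin B lasted 3 h (n = 3), 6 h (n = 3), 12 h (n = 2) or 24 h (n = 3), and the comparisons at 3, 6 and 12 h share the control 0 h libraries. By the study's methods cells were seeded for differentiation on laminin-521, a purified protein that does not appear in RNA counts. The line is a single reporter line, and no label states that replicates were separate cultures, so p-values measure the spread between these samples, which may be technical.

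The libraries held 23609727 to 33515398 estimated reads. All 14 progenitor markers on the list, among them PDX1 (222 to 395 CPM) and SOX9, were at 1 CPM or more in every library. Replicate 2 of latrunculin B 12 h stood apart. It correlated with its partner at r = 0.979 across genes, against 0.989 to 0.994 in the other replicate pairs (genes are not independent replicates). It was the highest of the 16 libraries for 10 of 12 mesenchyme markers, whose summed level was 1623 CPM against 341 to 614 CPM in the other libraries. The same held for 6 of 8 endothelial markers (summed level 47.8 CPM against 7.02 to 21.3 CPM), 5 of 7 neural crest and Schwann cell markers and 3 of 6 liver markers, but for 1 of 10 endocrine and 0 of 14 progenitor markers. The summed neural crest and Schwann cell level was nevertheless the lowest there (167 CPM against 172.7 to 241.9 CPM), with ERBB3 at 139.5 CPM. The defining endothelial gene CDH5 reached 0.981 CPM and the Schwann cell gene SOX10 0.304 CPM in that library, whereas the endothelial receptor gene KDR was at 37.0 CPM. It was also the highest library for 20 of the 35 basement membrane genes. The share over all genes was not counted, so this is not shown to be particular to the list. The 12 h fold changes below are given without this library, and for some members also with both libraries. Replicate 1 of latrunculin B 24 h had fewer NEUROG3 reads (25.6 CPM) than its partners (59.8 and 49.5 CPM). In bulk RNA, fewer cells of a type and less RNA per cell cannot be told apart.

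The list was mostly well expressed. Over the 16 libraries the median level was above 100 CPM in 21 genes, between 3 and 100 CPM in 8 and below 3 CPM in 6. As summed CPM, a percentage of the scaled library size, the 35 genes took 2.61% to 2.65% in control 0 h and 2.35% to 2.45% in control 24 h. They took 1.67% to 1.95% in latrunculin B 24 h, where all 3 libraries lay below every other library. Per length, on the TPM scale, FN1 led at 0 h (1527 ± 66.3 TPM, SD, n = 3), followed by SPARC, COL18A1 (518 ± 10.99), AGRN (404 ± 28.8), COL4A5, LAMA1 (373 ± 13.5) and HSPG2 (328 ± 24.3). The library values of AGRN (372 to 426 TPM), COL4A5 (384 to 393 TPM) and LAMA1 (358 to 383 TPM) lay close together or overlapped, so their order is not set beyond the spread between libraries. SPARC is less certain in this order, since 58.3% of its reads lay on protein coding transcripts and the rest was led by SPARC-202, a retained intron transcript.

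Collagen IV genes lie in head-to-head pairs, so that both genes of a pair start from the same stretch of DNA. RefSeq starts of COL4A1 and COL4A2 on chromosome 13 are 127 bases apart, those of COL4A3 and COL4A4 on chromosome 2 are 419 bases apart, and the nearest of COL4A5 and COL4A6 on the X chromosome are 380 bases apart. The stretches between the starts, or the part before COL4A5, are shown because expression is given below pair by pair, and those before HSPG2 and LAMA5 because these fell most among the abundant members at 24 h. All are RefSeq promoter sequence of GRCh38.p14, 5′ to 3′, on the plus strand for the pairs and on the minus strand for HSPG2 and LAMA5, and overlap no annotated exon. Capitals mark the GC box GGGCGG or its reverse complement.
COL4A1 and COL4A2, chr13:110307158-110307257: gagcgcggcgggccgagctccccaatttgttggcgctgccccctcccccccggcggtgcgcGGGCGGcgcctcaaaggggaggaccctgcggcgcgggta
COL4A3 and COL4A4, chr2:227164454-227164623: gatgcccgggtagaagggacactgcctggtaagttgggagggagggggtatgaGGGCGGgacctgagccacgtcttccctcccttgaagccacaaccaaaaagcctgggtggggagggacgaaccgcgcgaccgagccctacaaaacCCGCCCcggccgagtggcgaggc
COL4A5 and COL4A6, chrX:108439588-108439837: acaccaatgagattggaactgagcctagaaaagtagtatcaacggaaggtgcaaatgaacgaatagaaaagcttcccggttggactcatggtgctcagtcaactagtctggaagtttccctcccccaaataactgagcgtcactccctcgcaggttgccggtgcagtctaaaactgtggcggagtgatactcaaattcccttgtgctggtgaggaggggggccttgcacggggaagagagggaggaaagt
HSPG2, chr1:21937311-21937560: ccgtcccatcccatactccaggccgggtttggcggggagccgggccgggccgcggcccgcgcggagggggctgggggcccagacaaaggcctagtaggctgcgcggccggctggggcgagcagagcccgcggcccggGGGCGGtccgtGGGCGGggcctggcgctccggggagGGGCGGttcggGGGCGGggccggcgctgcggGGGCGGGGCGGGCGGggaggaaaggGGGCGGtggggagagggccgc
LAMA5, chr20:62367313-62367562: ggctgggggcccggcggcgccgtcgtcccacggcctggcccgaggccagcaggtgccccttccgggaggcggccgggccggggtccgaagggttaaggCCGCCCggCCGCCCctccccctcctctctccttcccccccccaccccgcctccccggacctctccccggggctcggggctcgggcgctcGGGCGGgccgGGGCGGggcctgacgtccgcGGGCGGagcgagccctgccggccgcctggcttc
The stretch of HSPG2 held 8 GC boxes and that of LAMA5 held 5, whereas the part before COL4A5 that is shown for its pair held 0. Windows from 250 bases before to 50 after a start were available for 32 members. The GC box was in at least 1 window of 24 of these, COL4A6 among them, and in 45.0% of all 35116 windows in the table. The TEAD motif GGAATG was in windows of LAMA2 and SPARC (14.03% of all windows), the AP-1 motif TGANTCA in a window of LAMA3 (7.71%), and the serum response CArG box in none of the members (1.29%). Each motif was searched on both strands, several members have more than 1 window, and the shares describe letters, not binding.

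The first comparison asked whether the list moved within hours of actin loss. At 3 h, 2 of 34 tested members were called by edgeR at an adjusted p under 0.05, against a background of 31.6% of all genes called, and at 6 h 3 members were called, against 43.3% of all genes. The median log2 fold change of the members was -0.06 at 3 h and -0.05 at 6 h, beside 0.00 and -0.01 over all genes. LAMA1 and TINAGL1 rose at both times and LAMA5 fell at 6 h. No collagen IV, nidogen, proteoglycan, FRAS or FREM gene was called at either time.

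LAMA1 encodes the laminin alpha 1 chain of early embryonic epithelia (chromosome 18, 6941742 to 7117797, minus strand, GRCh38). It was at 1831, 1846 and 1821 CPM in control 0 h, at 2284, 2313 and 2184 CPM at 3 h and at 2146, 2191 and 2152 CPM at 6 h. All 6 treated libraries lay above all 3 controls. The log2 fold change was 0.30 at 3 h (SE 0.05, edgeR adjusted p 0.000475) and 0.24 at 6 h (SE 0.05, edgeR adjusted p 0.00176). On log2(TPM + 1), limma-trend gave 0.18 and 0.10 (adjusted p 0.0736 and 0.265), so these calls hold on reads and not on TPM. At 12 h the levels were 1922 and 1929.6 CPM, a change of 0.07 that was not called with both libraries (edgeR adjusted p 0.352) or without replicate 2 (0.07, edgeR adjusted p 0.487).

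LAMA5, the alpha 5 chain of most mature epithelial basement membranes (chromosome 20, 62307955 to 62367312, minus strand), went the other way. In control 0 h it was at 439, 565 and 537 CPM, in control 24 h at 584 and 497 CPM, and at 3 h at 533, 521 and 441 CPM, overlapping the controls. On the TPM scale, however, LAMA5 was at 133, 119.5 and 113 TPM at 3 h, each below control 0 h (137, 213 and 186 TPM). At 6 h it was at 393, 368 and 345 CPM, at 12 h at 242 and 359 CPM, and at 24 h at 222, 228 and 205 CPM. From 6 h on every treated library lay below every control library. The log2 fold changes were -0.04 at 3 h (not called), -0.48 at 6 h (SE 0.13, edgeR adjusted p 0.0105), -0.77 at 12 h (SE 0.15, edgeR adjusted p 0.00159) and -1.31 at 24 h (SE 0.15, edgeR adjusted p 2.26e-05). Directly between treated groups, LAMA5 was lower at 6 h than at 3 h (-0.43, SE 0.13, edgeR adjusted p 0.0327) and lower at 24 h than at 6 h (-0.76, SE 0.13, edgeR adjusted p 0.00066). The call between 6 h and 3 h was lost in 8 of the alternatives, over which the adjusted p ran from 0.00572 to 0.116, and the call between 24 h and 6 h was lost on both log2 TPM scales (adjusted p up to 0.0864).

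TINAGL1, a secreted glycoprotein related to tubulointerstitial nephritis antigen, was at 8.17, 6.10 and 6.83 CPM in control 0 h. At 3 h it was at 11.1, 14.6 and 29.0 CPM and at 6 h at 12.1, 13.4 and 18.8 CPM. All 6 treated libraries were above the controls, with replicate 3 the highest at both times. It rose by 1.37 at 3 h (SE 0.37, edgeR adjusted p 0.0125) and 1.07 at 6 h (SE 0.38, edgeR adjusted p 0.0336). Without replicate 3 of its group the change was 0.85 at 3 h (edgeR adjusted p 0.0863) and 0.84 at 6 h (edgeR adjusted p 0.134), below the threshold. At 12 h (5.82 and 6.90 CPM, change -0.14, and -0.27 without replicate 2, edgeR adjusted p 0.833 and 0.769) and at 24 h (4.64, 13.4 and 8.01 CPM, change 0.91, edgeR adjusted p 0.113) it was not called.

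**Figure D1:**
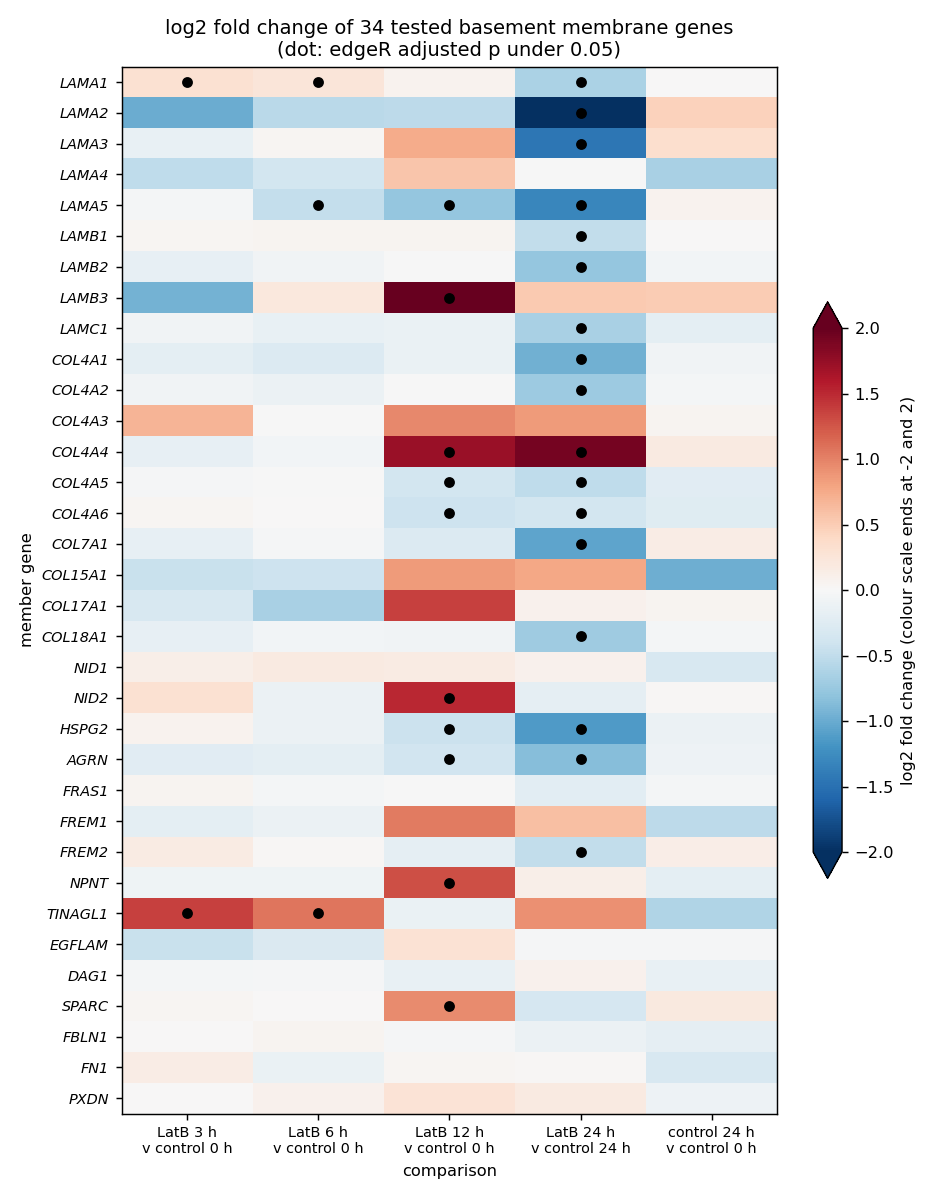
Log2 fold change (colour) of the 34 tested members (rows) in 5 comparisons (columns), with a dot where edgeR gave an adjusted p under 0.05 over all genes. Dots are few at 3 h and 6 h, appear in both directions at 12 h, are 16 blue and 1 red at 24 h, and are 0 between the controls.

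At 24 h, against the vehicle control of the same time, much of the sheet was lower at the RNA level. Of 34 members, 17 were called, against a background of 40.8% of all genes. Of these, 16 fell, against 18.8% of all genes called lower, and COL4A4 rose, against 21.9% called higher. The median log2 fold change was -0.27 over the members and 0.01 over all genes, and the former was -0.15 without latrunculin B 24 h replicate 2 and -0.41 without replicate 1. By class, the fallers were 4 of 5 laminin alpha genes, 2 of 3 beta genes, the tested gamma gene, 4 of 6 collagen IV genes, 2 of 4 other collagens, both proteoglycans and 1 of 3 FRAS and FREM genes, and no nidogen or associated glycoprotein gene was called. With replicate 2 of 12 h and replicate 1 of 24 h both left out, an alternative chosen after seeing the data, 22 members were called, 19 lower and 3 higher, against 44.5% of all genes in that fit, 20.6% lower and 23.9% higher. Cell type markers moved in the same comparison. The summed level of 10 endocrine markers was 126 to 379.9 CPM against 77.2 to 90.6 CPM in control 24 h, with 7 called higher and 0 lower. That of 14 progenitor markers was 7802 to 8523 CPM against 9470.2 to 10025 CPM, with 4 higher and 6 lower. Keratin genes weigh heavily in that sum. KRT8 was at 1769, 1472 and 1660 CPM against 2808 and 3114 CPM, and KRT18 at 672, 608 and 660 CPM against 1328 and 1451 CPM. GP2, on the same list, was higher (1663, 2385 and 2236 CPM against 1392 and 1381 CPM). The sum therefore does not describe the list as a whole. Of 12 mesenchyme markers none was called at 24 h by edgeR, at 341 to 576 CPM against 516 to 591 CPM in sum. The part of these cells in the members' levels was not tested.

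HSPG2, which encodes perlecan, the large heparan sulphate proteoglycan of basement membranes (chromosome 1, 21822244 to 21937310, minus strand), was at 2544 and 2459 CPM in control 24 h and at 1296, 1097 and 1039 CPM with latrunculin B. The treated libraries were all well below the controls, and the change was -1.13 on the log2 scale (SE 0.13, edgeR adjusted p 3.49e-05). AGRN, encoding agrin, the other heparan sulphate proteoglycan on the list, went from 1762 and 1899 CPM to 1128, 947 and 981 CPM. Its change was -0.85 (SE 0.10, edgeR adjusted p 4.23e-05).

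Of the laminin genes, LAMA1 turned from its early rise to a fall. It was at 1910.2 and 1778 CPM in control 24 h and at 1279.8, 1173 and 1121 CPM in the treated libraries, with no overlap. The change was -0.63 (SE 0.06, edgeR adjusted p 3.82e-06). LAMB1, the main beta chain gene, went from 905 and 931 CPM to 714, 606 and 637 CPM (-0.49, SE 0.10, edgeR adjusted p 0.00163). LAMB2, the beta 2 chain, fell by 0.77 on the log2 scale (SE 0.13, edgeR adjusted p 0.000415). LAMC1, which encodes the gamma 1 chain of most laminins, was at 749 and 859 CPM in control 24 h and at 605, 466 and 465 CPM with latrunculin B, a change of -0.65 (SE 0.17, edgeR adjusted p 0.00889). Without control 24 h replicate 2 it was -0.55 (edgeR adjusted p 0.0757), and the call was lost.

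The remaining laminin genes had few reads. LAMA2, the alpha chain of muscle basement membrane, had 40 to 41 reads in a control 24 h library and 2 to 6 in a treated library. Its fitted change of -3.07 (SE 0.53, edgeR adjusted p 0.000554) has little precision in size. LAMA3, the alpha chain of hemidesmosomal laminin, changed by -1.44 (SE 0.42, edgeR adjusted p 0.0138) at 1.06 to 4.24 CPM, and lost the call in 6 alternatives (adjusted p up to 0.266). LAMA4, an alpha chain of vascular basement membranes, was at 4.61 and 6.17 CPM in control 24 h and at 7.64, 3.78 and 4.62 CPM with latrunculin B. These overlap and LAMA4 was not called (edgeR adjusted p 0.981). LAMB3, whose chain pairs with alpha 3 in hemidesmosomal laminin, was at 6.64 and 8.02 CPM against 9.42, 11.8 and 10.5 CPM, a change of 0.53 that was not called (edgeR adjusted p 0.274), though the groups did not overlap.

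**Figure D2:**
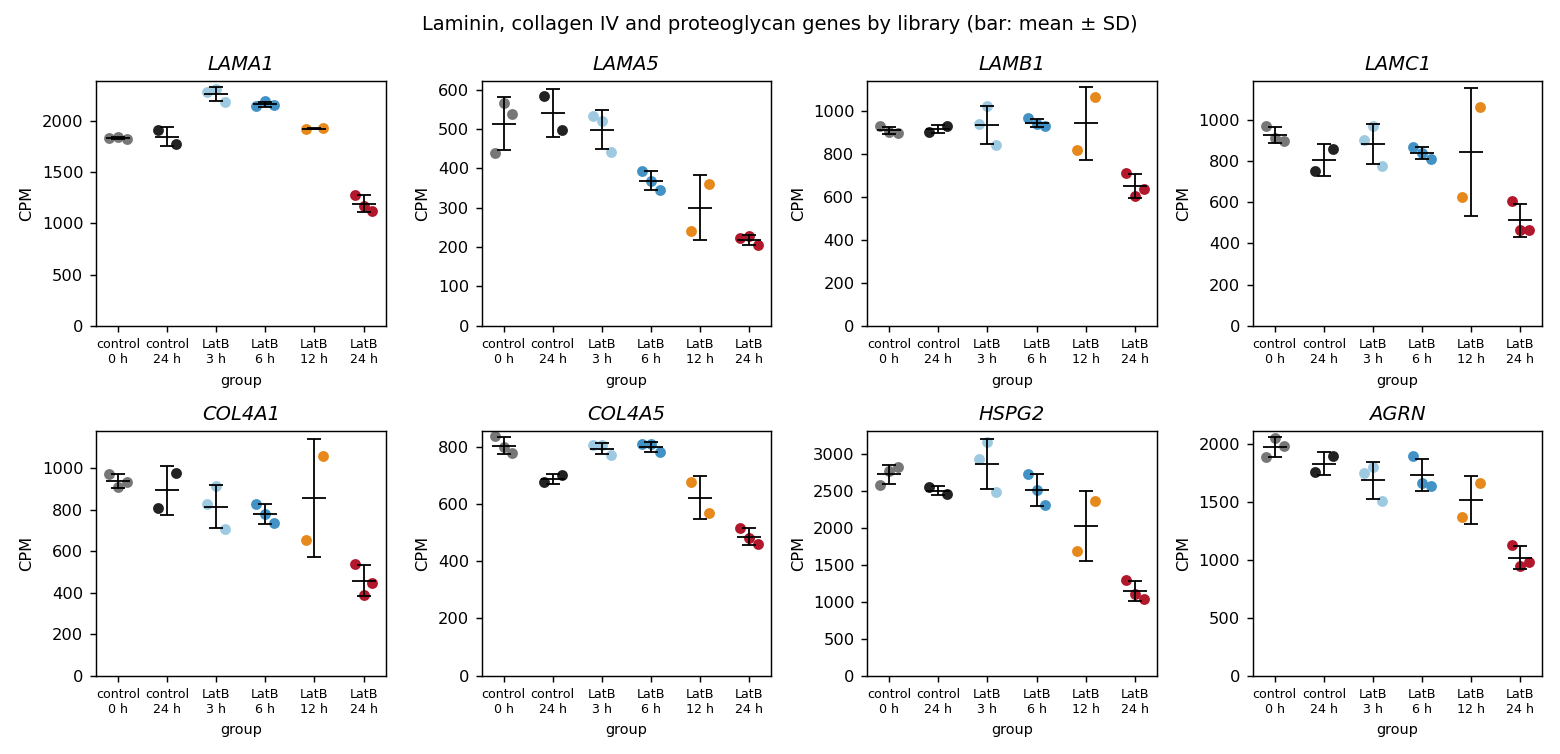
CPM (linear axis from 0) of 8 members in each of the 16 libraries by group, with the mean and SD as bars. The 3 libraries of latrunculin B 24 h lie below both control 24 h libraries in all 8 panels, LAMA1 is above control 0 h at 3 h and 6 h, and the 12 h libraries of LAMC1 and COL4A1 lie far apart.

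The widely expressed collagen IV pair fell together. COL4A1 (chromosome 13, 110148963 to 110307157, minus strand) was at 809.8 and 977 CPM in control 24 h and at 537, 390.4 and 445 CPM with latrunculin B, a change of -0.97 (SE 0.17, edgeR adjusted p 0.000691). COL4A2, its partner in the trimer, was at 1313 and 1468 CPM against 931, 789.7 and 813 CPM, a change of -0.72 (SE 0.11, edgeR adjusted p 0.00027). In both genes the treated libraries lay below the controls. The X-linked pair, whose chains form the trimer of some epithelial basement membranes, was lower by less. COL4A5 was at 677 and 702 CPM against 517, 482 and 461 CPM (-0.50, SE 0.07, edgeR adjusted p 9.51e-05), and COL4A6 at 535 and 569 CPM against 422, 453 and 407 CPM (-0.37, SE 0.11, edgeR adjusted p 0.0148). The call of COL4A6 was lost on leaving out control 24 h replicate 2 (-0.32, edgeR adjusted p 0.0981) or the third treated library (-0.33, edgeR adjusted p 0.0519). Whether the pairs differed from each other in size was not tested.

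The third pair was near the limit of detection. COL4A4, a chain of kidney and lung basement membranes (chromosome 2, 227002714 to 227164453, minus strand), had 16 to 18 reads in a control 24 h library and 48 to 92 in a treated library. Its level was 0.542 and 0.564 CPM against 1.64, 2.82 and 1.80 CPM, without overlap. It rose by 1.91 (SE 0.47, edgeR adjusted p 0.0058), and was at 1.88 with an edgeR adjusted p of 0.0537 without control 24 h replicate 1. COL4A3, which shares its start region, was at 0.203 and 0.0939 CPM against 0.273, 0.338 and 0.200 CPM, with overlap, and was not called (edgeR adjusted p 0.425). In summed collagen IV TPM these last 2 genes together stayed below 0.1% in every group, while COL4A1, COL4A2, COL4A5 and COL4A6 held nearly all of it.

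COL18A1, whose product carries endostatin at its end (chromosome 21, 45405165 to 45513720, plus strand), was at 2342 and 2609 CPM in control 24 h and at 1604, 1341 and 1598 CPM with latrunculin B. The change was -0.71 (SE 0.12, edgeR adjusted p 0.000371). Of its exonic bases 18.5% lie opposite SLC19A1, as 11.7% of those of HSPG2 lie opposite LDLRAD2, 11.1% of those of LAMA1 opposite antisense genes and 30.7% of those of NID2 opposite RTRAF, and reads there cannot be told apart if the counting ignored strand. Transcripts from its first annotated start, led by COL18A1-207, took 89.0% to 95.6% of its TPM, and those from the start of COL18A1-201 3.98% to 7.28%, in ranges over all 16 libraries. COL7A1, the anchoring fibril collagen, was at 199 and 161 CPM against 88.8, 78.9 and 91.8 CPM and fell by 1.06 (SE 0.24, edgeR adjusted p 0.00331). COL15A1 and COL17A1 were below 5.3 CPM in every library and were not called. FREM2, which acts with FRAS1 in embryonic epithelia, was at 303 and 301 CPM against 225, 217 and 205 CPM (-0.49, SE 0.15, edgeR adjusted p 0.0167). It lost the call in 5 alternatives (adjusted p up to 0.0909). FRAS1 (-0.21, edgeR adjusted p 0.340) and FREM1 (0.60, edgeR adjusted p 0.310) were not called.

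Several abundant members were not called at 24 h. FN1, encoding fibronectin, an integrin ligand found in and around the sheet, was at 5569 and 5733 CPM in control 24 h and at 6237, 5724 and 5246 CPM with latrunculin B. The groups overlapped, with a change of 0.02 (SE 0.14, edgeR adjusted p 0.919). PXDN, encoding peroxidasin, which forms the sulfilimine crosslinks of collagen IV, was at 839 and 892 CPM against 1026, 937 and 989 CPM. All 3 treated libraries lay above the controls, but the change of 0.19 (SE 0.11) was not called (edgeR adjusted p 0.181). DAG1, encoding dystroglycan, the laminin receptor, changed by 0.08 (SE 0.09, edgeR adjusted p 0.481). The nidogen genes NID1 (0.08, edgeR adjusted p 0.551) and NID2 (-0.18, edgeR adjusted p 0.773), and SPARC, FBLN1, NPNT and EGFLAM, which encode glycoproteins bound to the matrix, were not called. A missed threshold does not show that these genes were unchanged.

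Comparing the fall across time, 19 members were called between latrunculin B 24 h and 6 h, against 37.9% of all genes. Of these, 18 were lower at 24 h, against 18.9% of all genes, and COL4A4 was higher, against 19.0%. The comparison uses no control. LAMA1 changed by -0.86 (SE 0.05, edgeR adjusted p 1.37e-07) and HSPG2 by -1.14 (SE 0.12, edgeR adjusted p 1.45e-05). NID1 (-0.42, SE 0.09, edgeR adjusted p 0.00283) and FBLN1 (-0.36, SE 0.05, edgeR adjusted p 0.000127), which encodes fibulin 1, were lower here although they were not called against control 24 h. NID1 in control 24 h (169 and 183 CPM) lay below all control 0 h libraries (238, 208 and 211 CPM). Between 6 h and 3 h, 2 members were called, against 22.2% of all genes, LAMA5 lower as above and LAMB3 higher (1.16, SE 0.36, edgeR adjusted p 0.0327), a call lost in 6 alternatives.

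The effect at 24 h was also tested against the effect at 3 h, each relative to its own control. It differed in 14 of 34 members, against 27.9% of all genes. Of these members, 12 had a lower and 2 a higher effect at 24 h, beside 2234 lower and 2431 higher of 16705 genes. The largest difference among abundant members was in LAMA5 (-1.26, SE 0.20, edgeR adjusted p 0.000539), followed by HSPG2 (-1.20, SE 0.18, edgeR adjusted p 0.000424) and LAMA1 (-0.93, SE 0.08, edgeR adjusted p 5.98e-06). By CPM, LAMA1 and LAMA5 thus parted at 6 h, where LAMA1 was above and LAMA5 below control 0 h, and were both lower at 24 h. By TPM the 3 h libraries of LAMA1 already lay above control 0 h and those of LAMA5 below it, so the time of parting depends on the scale.

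The balance of the alpha chain genes moved as well. On summed TPM, which is per length, LAMA1 and LAMA5 held nearly all alpha chain RNA, with LAMA4 at 0.18% to 1.7% and LAMA2 and LAMA3 below 0.5% each. LAMA5 held 27.4% to 35.5% in control 0 h and 34.3% to 37.9% in control 24 h. It held 21.7% to 23.0% at 3 h, 15.7% to 18.5% at 6 h, 15.4% to 19.9% at 12 h and 20.4% to 24.2% at 24 h. All 11 treated libraries lay below all 5 controls. With reads divided by the longest coding transcript instead (a scale chosen after seeing the data), LAMA5 held 16.7% to 20.4% in control 0 h and 14.5% to 16.4% at 3 h, so the groups nearly met at 3 h although no treated library reached a control, and 12.7% to 14.01% at 24 h against 19.0% to 20.4% in control 24 h. Among beta chain genes, LAMB1 held 55.2% to 56.2% of TPM in control 24 h and 56.6% to 62.7% in latrunculin B 24 h. LAMC1 made up at least 99.9% of gamma chain TPM in every group. These shares were not tested.

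**Figure D3:**
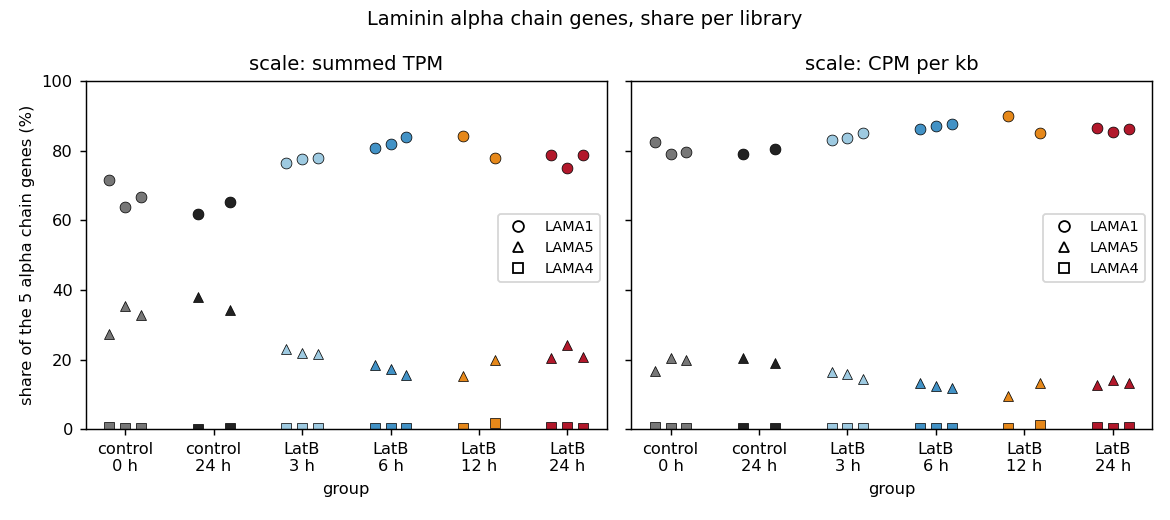
Share (%) of LAMA1, LAMA5 and LAMA4 in the 5 laminin alpha chain genes in each library by group, on summed TPM (left) and on CPM per kilobase of the longest coding transcript (right). The LAMA5 triangles of the treated groups lie below those of the controls on the left (15.4% to 24.2% against 27.4% to 37.9%) and, by less, on the right.

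At 12 h the members moved in both directions, and the result depends on the library. With both libraries, 10 of 34 members were called, against 35.8% of all genes. COL4A4, LAMB3, NID2, NPNT and SPARC were higher, against 19.1% of all genes called higher, and AGRN, COL4A5, COL4A6, HSPG2 and LAMA5 were lower, against 16.8% called lower. Without replicate 2, the library with high mesenchyme markers, 10 members were again called, but 1 was higher (LAMB3) and 9 were lower, against 30.7% of all genes called, 16.1% higher and 14.5% lower. Without replicate 1, 16 were called, 12 higher and 4 lower, against 35.8% of all genes, 18.5% higher and 17.3% lower. Where 1 library remains, its spread is assumed to be that of the other groups.

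NID2, encoding nidogen 2, had 21.9 CPM in the first 12 h library and 115 CPM in the second, against 26.3, 22.6 and 23.6 CPM in control 0 h. Its change of 1.51 (SE 0.43, edgeR adjusted p 0.0142) became -0.14 (edgeR adjusted p 0.652) without replicate 2. SPARC, a collagen-binding glycoprotein, was at 955 and 2248 CPM, against 763 to 929.8 CPM in control 0 h. It changed by 0.95 (SE 0.29, edgeR adjusted p 0.0221) with both libraries and by 0.20 (edgeR adjusted p 0.605) without replicate 2. In that replicate the mesenchyme genes COL3A1 (684 CPM, against 27.0 to 152 CPM in the other libraries) and LUM (75.5 CPM) were also high, and their part in the members' levels was not tested. NPNT, encoding nephronectin, went from 1.28 (SE 0.30) to 0.48 (edgeR adjusted p 0.185), and COL4A4 from 1.72 (SE 0.46) to 0.90 (edgeR adjusted p 0.220). With 2 libraries at 12 h, the drug and the library cannot be told apart in these genes.

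LAMB3 was higher with either library. It was at 13.4 and 40.4 CPM, above the 3.83 to 7.13 CPM of control 0 h, and changed by 2.38 with both (SE 0.36, edgeR adjusted p 0.000245) and by 1.37 without replicate 2 (edgeR adjusted p 0.00292). LAMA5 was lower with either library (-1.09 without replicate 2 and -0.52 without replicate 1, edgeR adjusted p 0.000176 and 0.0138). HSPG2 was at 1689 and 2355 CPM and AGRN at 1371 and 1662 CPM, below all control 0 h libraries. Without replicate 2 HSPG2 changed by -0.69 (edgeR adjusted p 0.00257) and AGRN by -0.53 (edgeR adjusted p 0.00497), and without replicate 1 neither was called. Without replicate 2, FN1 was called lower (-0.33, edgeR adjusted p 0.0224), as were LAMC1 (-0.57), COL4A1 (-0.52) and FREM2 (-0.58). COL4A5, COL4A6 and COL7A1 were the only members lower in replicate 2 (570.4, 405 and 97.1 CPM) than in replicate 1 (678, 576 and 173 CPM), and COL4A6 was not called without replicate 2 (-0.19, edgeR adjusted p 0.0827). COL4A5 changed by -0.37 with both libraries (SE 0.07, edgeR adjusted p 0.00117) and by -0.25 without replicate 2 (edgeR adjusted p 0.0113), and lost the call against control 24 h (edgeR adjusted p 0.160).

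**Figure D4:**
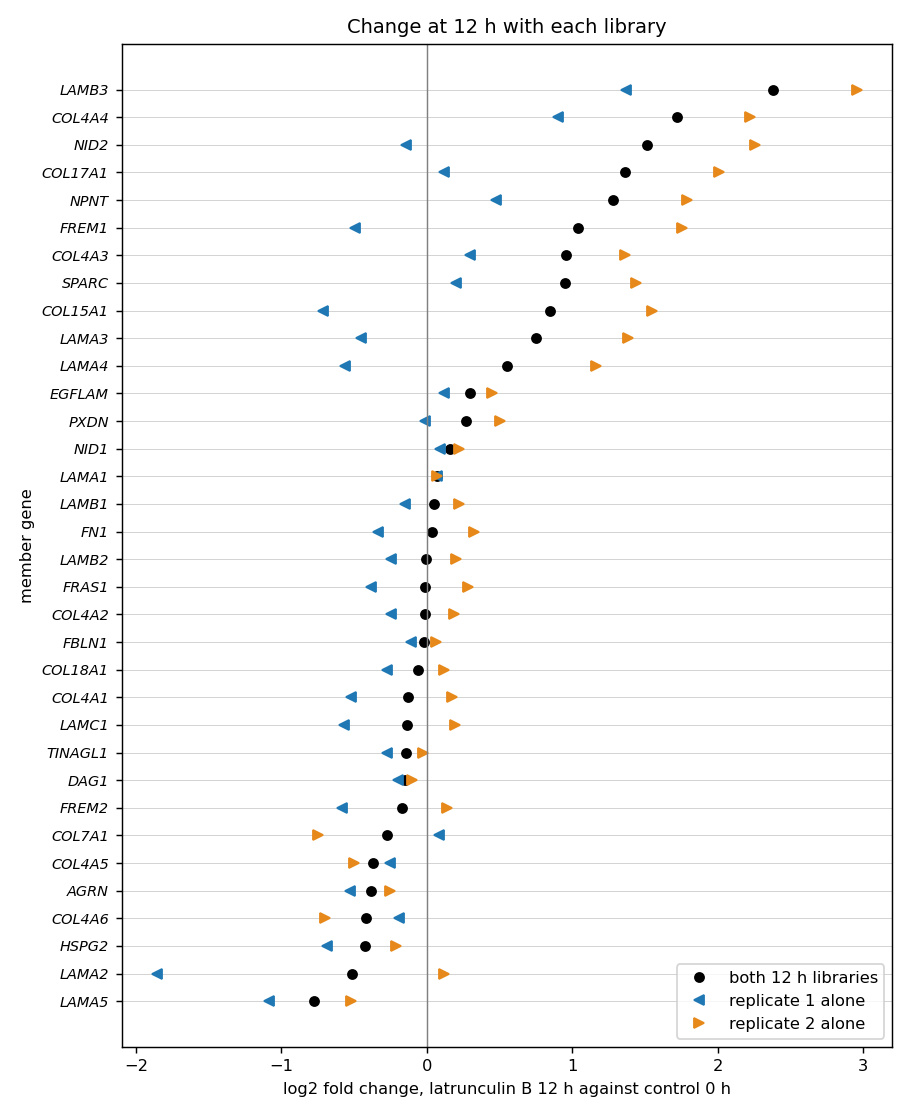
Log2 fold change of each tested member (rows) for latrunculin B 12 h against control 0 h with both libraries (black), replicate 1 alone (blue) and replicate 2 alone (orange). LAMB3 and LAMA5 keep their side of 0 with each library, whereas NID2 goes from -0.14 to 2.25.

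**Figure D5:**
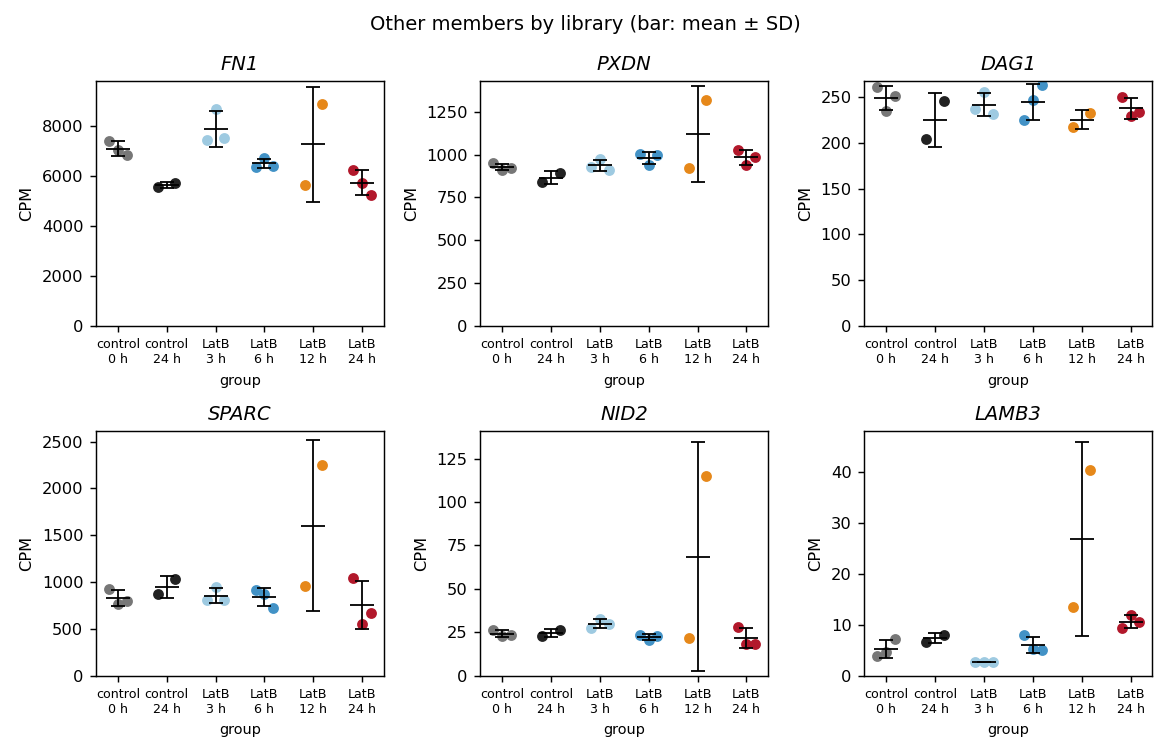
CPM (linear axis from 0) of FN1, PXDN, DAG1, SPARC, NID2 and LAMB3 in each library by group, with the mean and SD as bars. The 1 orange point far above the rest in SPARC, NID2 and LAMB3 is replicate 2 of latrunculin B 12 h (2248, 115 and 40.4 CPM).

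Time in culture without the drug was examined by setting control 24 h against control 0 h. No member was called by edgeR, where 0.251% of all genes were called, and none by DESeq2, where 267 of 16705 genes were called. An unadjusted edgeR p under 0.05 was found in 5 of 34 members, beside 1414 of 16705 genes. FN1 was at 5569 and 5733 CPM at 24 h against 6825 to 7417 CPM at 0 h, without overlap (-0.33, SE 0.14, edgeR adjusted p 0.537). COL4A5 (677 and 702 CPM against 779 to 839 CPM, -0.23, edgeR adjusted p 0.267) and NID1 showed the same order. With control 0 h as the reference at 24 h, 19 members were called, 17 lower and 2 higher, against 42.4% of all genes, 19.8% lower and 22.7% higher. LAMB3 was among the higher (1.03, edgeR adjusted p 0.0243).

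Genes that bind, build or remodel the sheet were counted as well, beside the 40.8% of all genes called at 24 h, 21.9% higher and 18.8% lower. Of 18 receptor genes (integrins and others), 4 were higher and 10 lower at 24 h, with a median log2 fold change of -0.24. ITGA6, an alpha subunit of laminin-binding integrins, rose by 0.75 (SE 0.05) and ITGA7 by 0.87 (SE 0.13), while ITGA3, another laminin-binding subunit, fell by 0.71 (SE 0.19) and the collagen receptor DDR1 by 1.13 (SE 0.20). Of 19 genes for matrix processing and assembly, 3 were higher and 4 lower, a total near the share over all genes. COLGALT1, a collagen galactosyltransferase, was at 0.64 (SE 0.07) and POGLUT2 at 0.69 (SE 0.09). LOXL4, a lysyl oxidase, was at -0.99 (SE 0.22) and P3H2, a collagen prolyl hydroxylase, at -0.94 (SE 0.23). Of 19 tested remodelling genes, 2 were higher and 5 lower, also near that share in total. The metalloproteinase gene MMP24 went from 45.5 ± 5.03 CPM (SD, n = 2) in control 24 h to 6.62 ± 2.01 CPM (SD, n = 3), a change of -2.78 (SE 0.26), and MMP11 changed by -0.86 (SE 0.17). ADAMTS9, a secreted protease, rose by 1.23 (SE 0.11) and TIMP3, a protease inhibitor held in the matrix, by 1.38 (SE 0.23). The 12 genes named here are the largest called changes of each list, with edgeR adjusted p of at most 0.00802.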

How the data were processed

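Poly(A) RNA from 16 libraries was sequenced. Per the labels and the submitters' processing notes, the authors used Salmon 1.3.0 against hg38, and the deposited tables give an estimated count and TPM (a share of transcripts scaled for length) for each of 177456 transcripts. The study's methods also describe gene counts made with another aligner, and strand use is not given in the sources used here. A deposited table of the authors' own fold changes, standard errors and p-values, with 16 columns of sample values, was not used.

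Transcripts were joined to GENCODE 44 by identifier without version (165533 matched, 151923 with the same version), leaving out 2.92% to 3.17% of reads, and summed to 35810 genes. Rounded estimated counts were fitted with edgeR 4.0.16 (R 4.3.3) by its quasi-likelihood test, with TMM factors (0.947 to 1.05) and filterByExpr, over all 16 libraries in 1 fit. P-values were adjusted by Benjamini-Hochberg over 16705 genes and called under 0.05. The script was tested on simulated data. Alternatives used DESeq2 1.42.0, limma-trend 3.58.1 on log2(TPM + 1) and log2(TPM + 0.1), other scaling, filters, a transcript length offset, a replicate block, the other control, only the compared groups, a minimum log2 fold change of 1, and leaving out each library. CPM values use TMM. Figures were drawn with matplotlib 3.10.9.

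The members and lists were chosen with earlier results of these data known. Every member is accounted for, and genes of the receptor, assembly and remodelling lists are named where they are the 2 largest called rises or falls at 24 h. Replicate libraries were distinct. Comparisons at 3, 6 and 12 h have no vehicle library of the same time here, so drug and time in culture cannot be told apart in them.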

Additional observations from a re-analysis of the deposited data

Results flagged for a closer look

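In 14 of 34 members, against 27.9% of all genes, the change after 24 h of latrunculin B differed from that after 3 h. The change was relative to control 24 h at 24 h and to control 0 h at 3 h. The difference itself was tested by edgeR and is given here as 24 h minus 3 h on the log2 scale. Among laminin genes the difference was -0.93 in LAMA1 (edgeR adjusted p 5.98e-06), -2.08 in LAMA2 (0.041), -1.26 in LAMA5 (0.000539), -0.53 in LAMB1 (0.0104), -0.60 in LAMB2 (0.0196) and 1.48 in LAMB3 (0.0477). The LAMA1 effect was 0.30 at 3 h and -0.63 at 24 h, and was called at each time. Among collagen genes it was -0.76 in COL4A1 (edgeR adjusted p 0.0272), -0.64 in COL4A2 (0.00712), 2.07 in COL4A4 (0.0303), -0.48 in COL4A5 (0.00191) and -0.55 in COL18A1 (0.0191). It was -1.20 in HSPG2 (edgeR adjusted p 0.000424), -0.62 in AGRN (0.00537) and -0.65 in FREM2 (0.0246). LAMA2 and COL4A4 rest on few reads. The difference in LAMB3 was lost in 13 alternatives, those in COL4A1 and LAMA2 in 12 each, and those in COL4A4 and FREM2 in 9 each.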

How the results depend on the processing

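Of 67 called member results, 36 kept their call in every alternative run, and 1085 of 1247 recomputed values of these results kept it. Over all member results 4846 values were recomputed, of which 160 lost a call and 122 gained one. In 5 the sign changed, with a call in either the main fit or the alternative but not in both. These 5 were the LAMA2 difference between 24 h and 3 h on log2(TPM + 1) (0.053), COL4A5 at 3 h and 6 h against control 24 h (0.21 and 0.22), and NID2 and FN1 at 12 h without LatB 12 h replicate 2 (-0.14 and -0.33, against 2.25 and 0.33 without replicate 1). At 3 h the members called went from 2 to 4 with DESeq2, 4 with no scaling, 6 with the transcript length offset, 6 with only the compared groups, 8 with the other control, 1 with a minimum log2 fold change of 1 and 5 without LatB 12 h replicate 2, chosen after seeing the data. In the same order, the genes called over all were 5258, 5342 and 3870 of 16705 and 5739 of 15709. They were then 5412 and 614 of 16705 and 6161 of 17139, beside 5271 of 16705 in the main fit. At 6 h the members called went from 3 to 8, 6 and 1 with only the compared groups, the other control and the minimum. In the same order, 8055 of 15542, 6904 of 16705 and 1033 of 16705 genes were called, beside 7230 of 16705 in the main fit. At 12 h the members called went from 10 to 3 with only the compared groups and 4 with the minimum. There 2828 of 15773 and 1266 of 16705 genes were called, beside 5988 of 16705 in the main fit. At 24 h the members called went from 17 to 6 with the minimum, while the genes called over all went from 6809 to 1213 of 16705. Between 6 h and 3 h the members called went from 2 to 4 with only the compared groups, 0 on both log2 TPM scales, 1 with the minimum and 4 without LatB 12 h replicate 2. In the same order, 4563 of 15587, 1751 and 1788 of 16705, 298 of 16705 and 4632 of 17139 genes were called. The main fit called 3710 of 16705. Between 24 h and 6 h the minimum left 4 of 19 called members, and 865 of 6323 called genes. The 14 differing effects became 7 on both log2 TPM scales, 5 with the minimum and 22 without both LatB 12 h replicate 2 and LatB 24 h replicate 1, chosen after seeing the data. Over all genes these fits called 2941, 2940 and 960 of 16705 and 5774 of 17092, beside 4665 of 16705 in the main fit. Leaving out each library in turn gave 1 to 5 members at 3 h, 2 to 3 at 6 h, 8 to 16 at 12 h, 13 to 19 at 24 h, 0 to 0 between controls, 0 to 4 between 6 h and 3 h, 17 to 20 between 24 h and 6 h and 7 to 19 differing effects. The genes called over all moved too. With 1 library of a group of 3 left out, 16637 to 16737 genes were tested. Of these, 4145 to 4720 were called at 3 h and 5934 to 6618 at 6 h. At 12 h it was 4826 to 5448, at 24 h 5584 to 6424 and between controls 2 to 9. Between 6 h and 3 h it was 2549 to 2995, between 24 h and 6 h 5059 to 5742. Effects differed in 3959 to 4535. The member ranges thus do not show instability particular to the members. Deviations of same-numbered libraries from their group means gave r from -0.33 to 0.15 over 36 pairs, 5 over 0.1. With 2 or 3 libraries in a group these values depend on one another. They do not decide whether the numbers pair the libraries. The replicate block gave 2, 3, 9 and 17 members at 3, 6, 12 and 24 h and 0 between controls. It gave 2 between 6 h and 3 h, 19 between 24 h and 6 h and 10 differing effects. Of all 16705 genes it called 4853, 6863, 5364, 6005, 6, 3242, 5902 and 4107 in the same order. With no scaling the median of all genes moved by -0.08 at 3 h, -0.10 at 6 h and 0.14 between 24 h and 6 h. The causes of these changes were not tested. Depth limits LAMA2, LAMC3, COL4A3, COL4A4 and COL15A1, each under 3 CPM in every library, and COL17A1, with a median of 1.17 CPM.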
